A study of Homo sapiens with 12 samples.

Results

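Activated Jurkat cells gave crosslinked RNA in an EIF3A/C/B band and an EIF3B/C band, and the bands were compared to find which RNAs, and which regions of an mRNA, were recovered more in either band. Jurkat is a clonal human CD4+ T cell leukaemia line, so these libraries describe a single transformed line. Cells were given 50 µM 4-thiouridine for 7 hr, then PMA and ionomycin for 5 hr in its continued presence, and crosslinked with 365 nm UV light at 0.2 J/cm2. Non-activated cells received the same label and crosslinking without PMA and ionomycin. An antibody against EIF3B brought down eIF3, and crosslinked RNA was recovered from gel bands that the study named by the subunits found in them. Both bands hold EIF3B and EIF3C, so neither band is a single subunit. The libraries were selected by the band and state in their labels, with no measured value used, and make 4 of the 20 PAR-CLIP libraries: replicates 1 and 2 of each band. They list 5975 genes with a called cluster in at least 1 library, of which 3405 had at least 20 reads in some library and were tested.

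eIF3 is the largest of the translation initiation factors and brings the small ribosomal subunit, with its initiator tRNA, to an mRNA. EIF3A and EIF3C belong to the structural core of the complex, which sits near the mRNA exit side of the small subunit, and EIF3B belongs to a peripheral module that can move during initiation. In PAR-CLIP, 4-thiouridine in RNA that touches protein is crosslinked and is then read as C, and overlapping reads with such T-to-C conversions are joined into a cluster, here called a site. RNA was trimmed with MNase, and reads carrying the same random barcode had been collapsed.

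The EIF3A/C/B libraries had 1148037 and 1163754 uniquely aligned reads and the EIF3B/C libraries 915290 and 906588, and these totals served as the depth. Genes with a site numbered 4916 and 4890 in EIF3A/C/B against 3516 and 3454 in EIF3B/C. A site needed at least 7 reads, so a gene that is not listed may still have fewer reads than that, and the deeper EIF3A/C/B libraries pass this minimum more easily. Reads in sites made up 28.6 and 28.7% of the uniquely aligned reads in EIF3A/C/B and 23.6% in both EIF3B/C libraries. Over 1465 genes with at least 20 reads in every library, log2 reads correlated within a band at r = 0.96 and 0.94 and between bands at r = 0.84 in all 4 pairings, which is a description across genes and not a test. The cell type fitted its label in the activated RNA profile, where 13 of 14 T cell markers reached a TPM of 1 and CD3D, a signalling chain of the T cell receptor, was the highest at 39.1. Of 16 markers of other cell types with a value, 1 reached that level, PECAM1 at 1.25, and none of the 19 fixed for the check was listed in any of the 4 libraries.

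The clearest difference between the bands was where on an mRNA the reads lay. Reads over start codons were 2.16 times as abundant in EIF3A/C/B, and reads in 3'-UTRs were 1.42 times as abundant in EIF3B/C. Start codon reads made up 1.82% of uniquely aligned reads in both EIF3A/C/B libraries (95% Wilson intervals 1.79 to 1.84% and 1.80 to 1.85%) and 0.846 and 0.837% in the EIF3B/C libraries (0.828 to 0.865% and 0.818 to 0.856%). The bands did not overlap, and the replicates of a band differed far less than the bands. 3'-UTR reads made up 9.63 and 9.64% in EIF3A/C/B (9.58 to 9.68% and 9.59 to 9.70%) and 13.7 and 13.6% in EIF3B/C (13.6 to 13.7% in both). These counts do not depend on calling sites. Intervals here and below cover counting error only. By edgeR's quasi-likelihood test with Benjamini-Hochberg adjustment over 37 RNA classes, start codon reads were higher in EIF3A/C/B by 1.11 on the log2 scale (SE 0.014, adjusted p = 3.39e-06, n = 2 per band) and 3'-UTR reads fell by 0.50 (SE 0.0049, adjusted p = 2.42e-06). With the replicate number as a block, both had an adjusted p of 0.0043. Over the 37 classes 23 were called (62.2%), of which 13 stood higher in EIF3A/C/B (35.1%) and 10 lower (27%).

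Other mRNA regions differed little. Reads in 5'-UTRs were 19.5% in both EIF3A/C/B libraries and 17.3% in both EIF3B/C libraries, a log2 difference of 0.17 (SE 0.0039, adjusted p = 1.79e-05 by edgeR), which missed the threshold with TMM scaling (0.09, adjusted p = 0.054). Coding reads were 17.6% in both EIF3A/C/B libraries and 16.9 and 16.8% in the EIF3B/C libraries, a difference of 0.06 that turned to -0.02 with TMM scaling. Stop codon reads stood at 0.308 and 0.305% against 0.307 and 0.310%, and the log2 difference was -0.01 (SE 0.018, adjusted p = 0.77 by edgeR). So start codons differed and stop codons, which are as short, did not pass the test. Reads over start codons per 3'-UTR read came to 0.189 in both EIF3A/C/B libraries and to 0.0620 and 0.0614 in EIF3B/C, a ratio that no scaling to depth can change. Since the values are shares of a library, more of one region and less of the others cannot be told apart in them. The cells of a culture were pooled as well, so a large difference in some cells and a smaller one in all cells cannot be told apart.

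**Figure D1:**
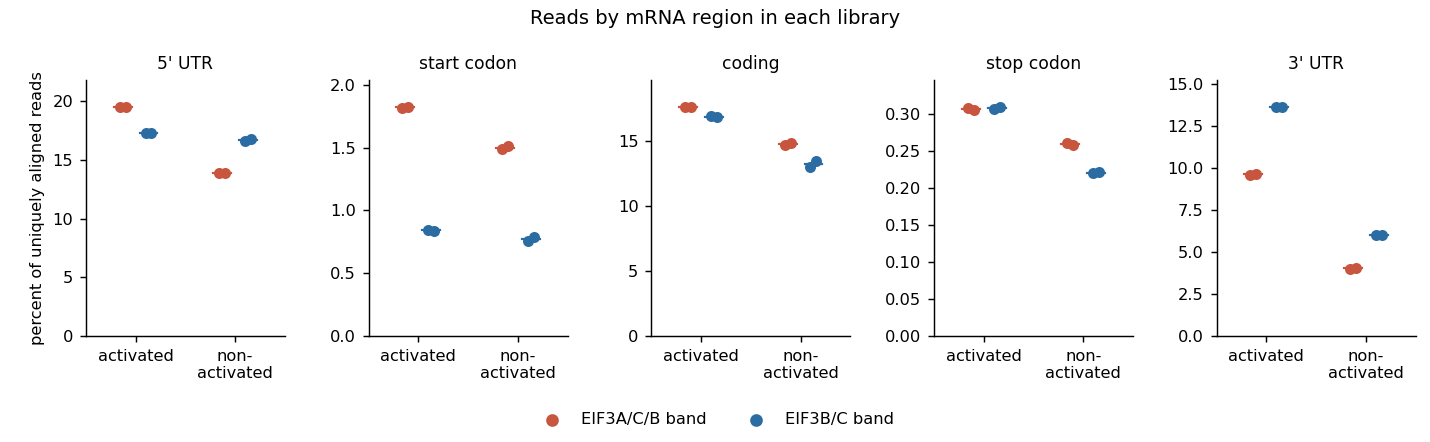
Reads in each mRNA region as a percent of uniquely aligned reads (y axis, starting at 0, own scale in each panel) in the 4 activated and 4 non-activated libraries of both bands. Each point is a library and each short line the mean of the 2 replicates. In activated cells start codon reads lie at 1.82% in EIF3A/C/B and at 0.846 and 0.837% in EIF3B/C, and 3'-UTR reads lie lower in EIF3A/C/B.

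The called sites showed the same split. Start codon sites numbered 1050 and 1031 in EIF3A/C/B against 377 and 367 in EIF3B/C, which is 8.95 and 8.72% of all sites (Wilson intervals 8.45 to 9.48% and 8.22 to 9.24%) against 4.35 and 4.31% (3.94 to 4.80% and 3.90 to 4.76%). Sites in 3'-UTRs made up 12.2 and 12.7% in EIF3A/C/B (11.6 to 12.8% and 12.1 to 13.3%) and 19.9 and 19.6% in EIF3B/C (19.05 to 20.7% and 18.8 to 20.4%). Sites that the sheets place in exons, a column whose limits they do not define, made up 23.3 and 23.4% against 19.6% in both EIF3B/C libraries. Sites in 5'-UTRs were the most frequent in every library, at 37.1 and 36.7% in EIF3A/C/B and 38.2% in both EIF3B/C libraries. With 2 libraries per band the smallest two-sided p of an exact permutation test is 1 in 3, so none was run on these shares. Among the 2566 genes listed in all 4 libraries, start codon sites were 7.54 and 7.31% against 4.36 and 4.34% of sites and 3'-UTR sites 15.0 and 15.4% against 20.8 and 20.5%. The direction was therefore the same when both bands were read over the same genes.

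Gene by gene, 210 of these 2566 genes had a start codon site in both EIF3A/C/B libraries and in neither EIF3B/C library, while 10 genes had the reverse. Exon sites were split in the same direction, with 176 genes against 36. Genes with a 5'-UTR site in a single band were about as many on either side, 77 and 82, and so were genes with a 3'-UTR site, 47 and 56. The difference in 3'-UTR sites thus lay more in their number per gene than in which genes had a site. In all, 155 genes had more 3'-UTR sites in both EIF3B/C libraries than in either EIF3A/C/B library and 89 the reverse. Reads of a single region are not given per gene. For 5'-UTR sites the corresponding numbers were 307 genes with more sites in EIF3A/C/B and 169 with more in EIF3B/C, and for start codon sites 212 and 10. The EIF3A/C/B libraries were the deeper ones, and the part of depth in these counts was not tested. In each of 4 bins of genes by reads summed over the 4 libraries, start codon sites were more numerous in EIF3A/C/B, with 70 and 67 against 35 and 33 in the lowest (29 to 97 reads per gene) and 262 and 246 against 155 and 160 in the highest (367 reads or more).

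**Figure D2:**
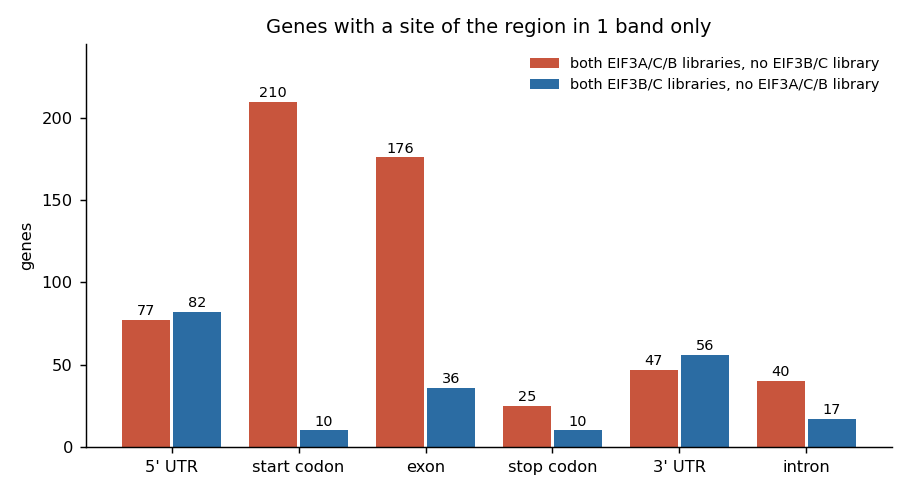
Number of genes (y axis, starting at 0) among the 2566 listed in all 4 activated libraries that had a site of each region in both libraries of one band and in neither library of the other. Start codons (210 against 10) and exons (176 against 36) lie toward EIF3A/C/B, while 5'-UTRs (77 against 82) and 3'-UTRs (47 against 56) are about even.

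Start codon sequences are shown for genes of these sets, since this is the position on which the bands differed. The sheets give no coordinates of the sites, so the windows are centred on the annotated start codon of each gene's MANE Select transcript (GENCODE, hg38) and not on a crosslink. Each has 12 bases before the start codon, the start codon ATG in capitals and 12 bases after it. The genes are among those with the most reads in each set, and CTBP1, MT2A and EIF5A were chosen after their values were seen. A start codon site was listed in both EIF3A/C/B libraries and in neither EIF3B/C library for MIDN, a nuclear protein that carries proteins to the proteasome, and EIF5A, a translation elongation factor.
MIDN (chr19:1250297-1250299, plus strand): cgcgcgccggggATGgagccgcagccc
EIF5A (chr17:7309636-7309638, plus strand): aagcctcttaaaATGgcagatgacttg
A start codon site was listed in all 4 libraries for DUSP2, a phosphatase of MAP kinases induced on T cell activation, SOX4, a transcription factor of lymphocyte development, and SLC7A5, an amino acid transporter.
DUSP2 (chr2:96145352-96145354, minus strand): gcaccggtggccATGgggctggaggcg
SOX4 (chr6:21594535-21594537, plus strand): cgagccgaggccATGgtgcagcaaacc
SLC7A5 (chr16:87869420-87869422, minus strand): ggtgcgcagagcATGgcgggtgcgggc
The reverse, a start codon site in both EIF3B/C libraries only, was seen for CTBP1, a transcriptional corepressor, and MT2A, a metallothionein.
CTBP1 (chr4:1241329-1241331, minus strand): ccatattaagagATGtcaggcgtccga
MT2A (chr16:56608656-56608658, plus strand): cttcagctcgccATGgatcccaactgc

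Over the whole sets, 208 of the 210 genes with a start codon site in EIF3A/C/B alone matched an annotated transcript. Their 5'-UTRs had a median of 132 nt, against 97 nt for 179 genes with a start codon site in all 4 libraries and 225 nt for 1516 genes with no start codon site in any. For the 10 genes with such a site in EIF3B/C alone it was 210 nt. The 27-base windows held 14.6% U and 67.3% G or C where EIF3A/C/B alone had a site, 16.2 and 67.7% where all 4 libraries had one, 20.4 and 60.0% where EIF3B/C alone had one and 18.5 and 57.1% where none had. Both sets with a site in EIF3A/C/B thus had shorter 5'-UTRs and more G and C around the start codon than genes without a site. The 10 genes of EIF3B/C alone lay nearer to the latter, and these are descriptions without a test. Median reads per gene in EIF3A/C/B differed as well, at 76.25 and 126.5 for the former sets against 43 for genes without a site. For the 10 genes of EIF3B/C alone the median was 94. The part of read number in these values was not tested. The median log2 difference in reads summed over a gene's sites was 0.57 for genes with a start codon site in EIF3A/C/B alone. It was 0.56 for those with such a site in all 4 libraries and 0.25 for those with none. Reads in a start codon site are part of that sum. The choice of genes with a site in EIF3A/C/B alone thus goes with the direction of the reads, and these medians are a description.

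Reads in called sites, summed per gene and scaled to uniquely aligned reads, were higher in EIF3A/C/B for most genes. The median log2 difference (EIF3A/C/B minus EIF3B/C) over the 3405 genes tested was 0.59, and over 2381 tested genes listed in all 4 libraries it was 0.31. By edgeR's quasi-likelihood test with Benjamini-Hochberg adjustment, 340 genes were called (9.99%), of which 254 stood higher in EIF3A/C/B (7.46%) and 86 lower (2.53%). The adjusted p of a called gene lay between 0.026 and 0.05. This count was not stable. With the replicate number as a block 0 genes passed (756 at an unadjusted p under 0.05), without either EIF3A/C/B library 0 passed (556 and 519 unadjusted), without EIF3B/C replicate 1 or 2 the counts higher in EIF3A/C/B were 822 and 767, and DESeq2, without a block, gave 505 and 309. Genes missing from some lists enter with 0 reads. Over the 2381 genes listed in all 4 libraries, 515 were higher in EIF3A/C/B (21.6%) and 200 lower (8.4%), and the block left 376 and 144. Of the 254 and 86 genes, 196 and 73 were listed in all 4 libraries and each of these was also called in the fit over such genes.

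The split between directions depended on the scale. TMM lowered the median of all genes by a shift of -0.33 on the log2 scale. With it 108 genes were higher in EIF3A/C/B and 172 lower, and with the reads in called sites as library sizes the counts were 114 and 160. Over genes listed in all 4 libraries, those library sizes gave 303 and 320 with a median of 0.03, so the excess over most genes depended on the scale. Reads scaled to all uniquely aligned reads (RPM, reads per 1000000) are used below, and a gene with a log2 difference between 0 and about 0.31 stood at or below the median of the genes listed in all 4 libraries. When distinct read sequences were counted in place of reads, 3 and 2 genes passed (1146 at an unadjusted p under 0.05).

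**Figure D3:**
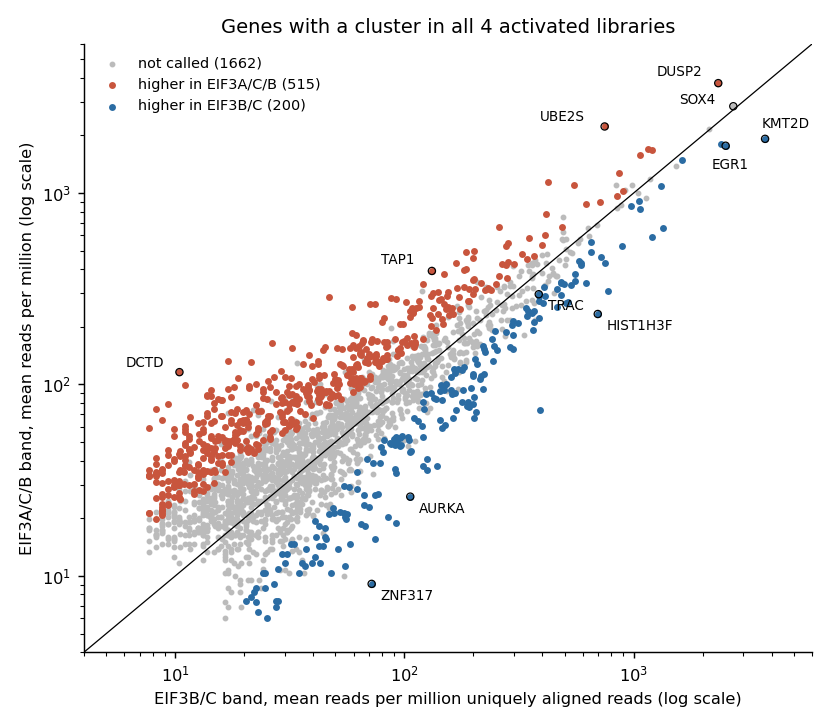
Mean RPM of each gene listed in all 4 activated libraries, EIF3B/C on the x axis and EIF3A/C/B on the y axis, both on log scales. The line marks equal values. Colours mark the genes called by edgeR over this set, 515 toward EIF3A/C/B and 200 toward EIF3B/C, and DUSP2 and UBE2S lie above the line while KMT2D, EGR1 and HIST1H3F lie below it.

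The number of sites moved with the reads. Of 609 genes with more sites in both EIF3A/C/B libraries than in either EIF3B/C library, 273 were called higher in EIF3A/C/B and 9 lower in the fit over genes listed in all 4 libraries, and their median log2 difference was 0.92. Of 178 genes with more sites in both EIF3B/C libraries, 18 and 69 were called and the median was -0.53. The choice by number of sites goes with the direction of the reads, so these counts are a description. The 353 genes with the same number of sites in all 4 libraries had a median of 0.12, with 65 called higher in EIF3A/C/B and 44 lower. Of 45 genes whose sites all lay in exons, 13 were called higher in EIF3A/C/B and 0 lower (median 0.69). The 16 genes with 3'-UTR sites alone had a median of -0.17, with 0 and 2 called. However, 454 genes with a 3'-UTR site and no start codon site had a median of 0.21, with 73 and 50 called. For 314 genes with both it was 0.26, with 80 and 35 called. Over all tested genes listed in all 4 libraries, 21.6% were called higher in EIF3A/C/B and 8.4% lower.

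The genes with the most reads differed in both directions. DUSP2 had 4261 and 4401 reads in EIF3A/C/B and 2070 and 2190 in EIF3B/C, or 3712 and 3782 RPM against 2262 and 2416. It was the leading gene of both EIF3A/C/B libraries, and was higher there by 0.68 on the log2 scale (SE 0.040, adjusted p = 0.0324, edgeR). KMT2D, a histone methyltransferase, led both EIF3B/C libraries, with 3768 and 3718 RPM against 1949 and 1885 in EIF3A/C/B, and its reads fell by 0.97 (SE 0.026, adjusted p = 0.0260, edgeR). Its reads were spread over 96 and 92 exon sites in EIF3B/C and 80 and 78 in EIF3A/C/B, while its start codon site was listed in EIF3A/C/B alone. The reads of that site are not given, and an unlisted site may still hold reads below the minimum for a site. Whether the start codon of KMT2D had more reads in either band was therefore not tested.

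UBE2S, which encodes the E2 enzyme that extends ubiquitin chains for the anaphase-promoting complex, had 2246 and 2203 RPM in EIF3A/C/B and 787 and 707 in EIF3B/C, with no overlap (log2 difference 1.57, SE 0.065, adjusted p = 0.0290, edgeR). EGR1, a zinc finger factor induced within minutes of receptor signals, had 1746 and 1784 in EIF3A/C/B and 2517 and 2519 in EIF3B/C. EGR1 was lower in EIF3A/C/B by reads (-0.51, SE 0.024, adjusted p = 0.0290, edgeR), but by distinct read sequences the difference was 0.30. SOX4 and SLC7A5 did not pass the test in either direction: SOX4 had 2799 and 2876 RPM against 2654 and 2787 (0.06, SE 0.035, adjusted p = 0.30) and SLC7A5 2165 and 2167 against 2052 and 2193 (0.03, SE 0.041, adjusted p = 0.63). Both turned negative with TMM, with reads in called sites or with DESeq2 size factors as the scale. CHST2, a sulfotransferase, was called higher in EIF3A/C/B at 1684 and 1717 RPM against 1142 and 1164 (0.56, SE 0.031, adjusted p = 0.0290, edgeR).

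Among genes listed in all 4 libraries with at least 50 reads in the higher band, the 10 furthest toward EIF3A/C/B were DCTD, IRAK1, E2F1, UBTD2, GLRX5, PRELID1, RHOH, UBE2C, CANX and DMWD, with log2 differences from 3.46 down to 2.65. DCTD, the deaminase that makes dUMP for thymidylate synthesis, had 137 and 131 reads in EIF3A/C/B and 10 and 9 in EIF3B/C (3.46, SE 0.18, adjusted p = 0.0290, edgeR). Of the 5 DCTD sites in either EIF3A/C/B library, 4 lay in introns. In EIF3B/C its 1 site lay at the start codon in replicate 1 and in an intron in replicate 2. IRAK1, a kinase of Toll-like and interleukin-1 receptor signalling, had 120 and 109 against 7 and 13. E2F1, a transcription factor of the G1/S transition, had 78 and 94 against 7 and 8. The EIF3B/C reads of these genes lay between 7 and 21 per library, usually with 1 site listed against 2 to 7 in EIF3A/C/B. Reads in sites under the minimum of 7 are not counted, and their part in the size of the difference was not tested. RHOH, a GTPase of T cell receptor signalling, had 78 and 72 reads against 7 and 9. CANX, the calnexin chaperone of the endoplasmic reticulum, had 102 and 102 reads against 16 and 9.

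The 10 furthest toward EIF3B/C were ZNF317, DNASE1, AURKA, AGAP2, VAC14, DMPK, SNHG9, UTP3, PIEZO1 and HIST1H3F, with log2 differences from -2.97 to -1.58. ZNF317, a zinc finger gene, had 11 and 10 reads in EIF3A/C/B and 68 and 63 in EIF3B/C (-2.97, SE 0.22, adjusted p = 0.0332, edgeR). Each of the 4 libraries listed 1 site for it, in the 5'-UTR. VAC14, a scaffold of the kinase that makes a lysosomal phosphoinositide, likewise had 1 site in the 5'-UTR in each library, with 21 and 21 reads against 51 and 71. AURKA, a mitotic kinase, had 28 and 32 reads against 91 and 102. PIEZO1, a mechanically gated ion channel, had 75 and 80 reads at 8 sites in either EIF3A/C/B library and 157 and 209 reads at 11 and 15 sites in EIF3B/C. These 20 genes stayed past the threshold in the fit over genes listed in all 4 libraries, with and without the replicate block. Scaled reads of both EIF3A/C/B libraries lay above both EIF3B/C libraries for 1163 of the 2381 tested genes listed in all 4 (48.8%) and below them for 501 (21%), so a lack of overlap alone was common.

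**Figure D4:**
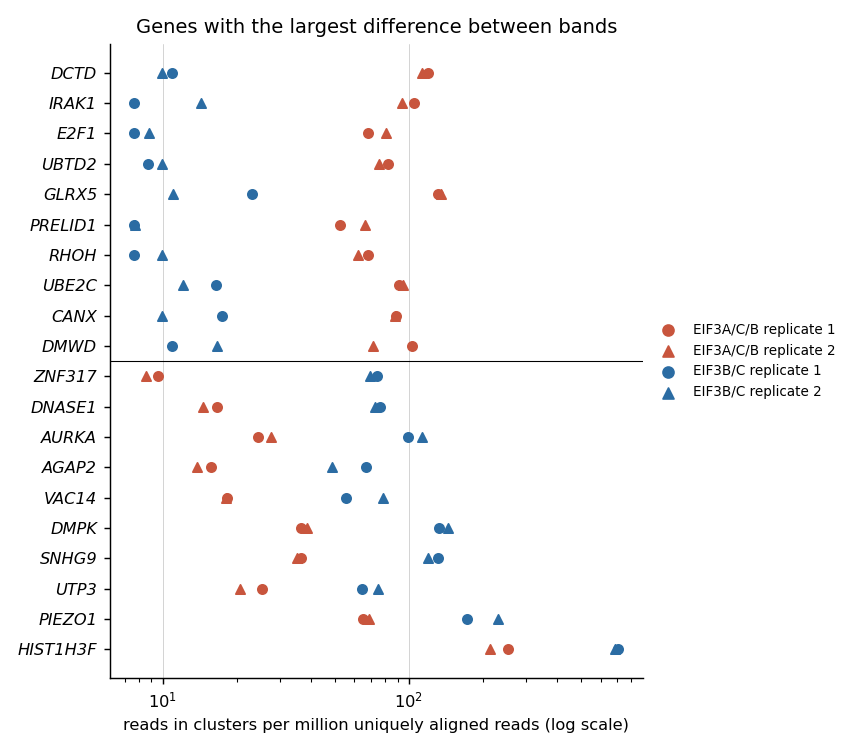
RPM (x axis, log scale) in each of the 4 activated libraries for the 10 genes furthest toward EIF3A/C/B (above the line) and the 10 furthest toward EIF3B/C (below it). The bands do not overlap for any of the 20 genes, by which rule they were chosen. The EIF3B/C points of the upper 10 stand for 7 to 21 reads, where a site needs 7.

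In activated cells histone mRNAs lay toward EIF3A/C/B. Counts of the gene groups are read against 7.46% called higher in EIF3A/C/B and 2.53% lower, or against 21.6 and 8.4% for genes listed in all 4 libraries. Replication-dependent core histone mRNAs end in a stem-loop in place of a poly(A) tail. Of 57 tested, 13 were higher in EIF3A/C/B and 2 lower (median log2 difference 0.97), and of 50 listed in all 4 libraries 30 and 3 were called (median 0.91). With TMM 5 and 3 of the 57 were called (median 0.64), to be read against 108 and 172 of all 3405 genes with that scaling (median 0.26). The counts by histone type were unequal: 11 of 13 H4 genes and 10 of 13 H2B genes listed in all 4 libraries were higher in EIF3A/C/B and 0 lower, with medians of 1.13 and 1.15, against 6 and 1 of 14 H2A genes and 3 and 2 of 10 H3 genes. Reads summed over H4 genes came to 3481 and 3540 RPM in EIF3A/C/B and 1634 and 1728 in EIF3B/C. Those over H3 genes came to 2662 and 2668 against 3109 and 2571, which overlap. HIST1H3F and HIST1H3B had 253 and 214 and 319 and 294 RPM in EIF3A/C/B against 709 and 685 and 778 and 774 in EIF3B/C, and both were called higher in EIF3B/C (-1.58, SE 0.11 and -1.34, SE 0.066). HIST2H3A, of the same type, had 749 and 806 against 404 and 426 (0.91, SE 0.067, adjusted p = 0.0332, edgeR). Histone genes of a type are nearly identical in sequence, so the assignment of reads between copies is uncertain, and by distinct reads HIST1H3B stood at 0.07. In non-activated cells the sums were lower in EIF3A/C/B for H2A (1044 and 1217 RPM against 2004 and 2193) and H2B (202 and 95.4 against 355 and 644). H3 was also lower there, at 640 and 894 against 4107 and 4111, and H4 overlapped, at 1921 and 2361 against 1633 and 2039. The part of the lower depth of those EIF3A/C/B libraries was not tested.

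Small nuclear RNAs, among them those of the spliceosome, also lay toward EIF3A/C/B. As a class, counted without site calling, they made up 0.329 and 0.331% of reads against 0.194 and 0.192%, a log2 difference of 0.78 (SE 0.018, adjusted p = 1.79e-05, edgeR). Of 28 tested genes in the group of small nuclear and 7SK RNAs, 9 were higher in EIF3A/C/B and 1 lower, and of 23 listed in all 4 libraries 12 and 0 were called (median 0.73). RNU5A-1 and RNU5B-1, which encode the U5 RNA that holds the exons during splicing, had 411 and 448 and 366 and 389 RPM in EIF3A/C/B against 156 and 179 and 152 and 147 in EIF3B/C. The U5 genes are copies, so the split between them is uncertain. Other noncoding classes differed less: snoRNA reads by 0.12 (adjusted p = 0.0092), not called without EIF3A/C/B replicate 1 or 2, with TMM (0.04, adjusted p = 0.36) or with DESeq2 (0.09, adjusted p = 0.26), and exonic lincRNA reads by 0.32 (adjusted p = 0.0182), which lost the call with the replicate block (adjusted p = 0.0975).

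Of the mRNAs of T cell activation, most were not called toward either band, which with 2 libraries per band does not show that they had no preference. Of the immediate early and other induced genes 22 were tested, and 5 stood higher in EIF3A/C/B and 1, EGR1, in EIF3B/C (median 0.58, near the 0.59 of all genes). Of 21 listed in all 4 libraries 8 and 1 were called (median 0.57, against 0.31 for all such genes). PIM3, a survival kinase, had 1572 and 1573 RPM against 1121 and 1002 (0.57, SE 0.066, adjusted p = 0.0418, edgeR), whereas NR4A1, a nuclear receptor induced by T cell receptor signals, had 957 and 1031 against 1048 and 1039 (-0.07, adjusted p = 0.40). Of 16 T lineage transcription factors, 4 and 1 were called, and of 13 listed in all 4 libraries also 4 and 1 (median 0.21). LEF1, a partner of beta-catenin, had 1733 and 1613 RPM against 1213 and 1187 (0.48, SE 0.048, adjusted p = 0.0394, edgeR), and RUNX3, which acts in CD8+ lineage choice, had 213 and 198 against 99.4 and 98.2 (1.06, SE 0.10, adjusted p = 0.0367). Of 18 genes of the T cell receptor complex and its signalling, 2 were higher in EIF3A/C/B and 0 lower (median 0.40). Of 14 listed in all 4 libraries 5 and 1 were called (median 0.24). With TMM the median of the 18 was 0.06 and 0 and 2 were called, to be read against 108 and 172 of all 3405 genes with that scaling (median 0.26).

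Of the T cell receptor mRNAs themselves, TRAC lay toward EIF3B/C and TRBC2 toward EIF3A/C/B, both by small differences. With TMM 1 of these 2 genes was called, toward EIF3B/C. TRAC, the alpha constant gene, had 343 and 341 reads in EIF3A/C/B and 362 and 340 in EIF3B/C, or 299 and 293 RPM against 396 and 375. It lay below in both EIF3A/C/B libraries by 0.38 (SE 0.070), which missed the threshold over all genes (adjusted p = 0.052) and passed over genes listed in all 4 libraries (adjusted p = 0.0312, edgeR). TRBC2, a beta constant gene, had 1032 and 1026 RPM against 886 and 911 (0.20, SE 0.038, adjusted p = 0.056 and 0.0400 in the same fits, and 0.061 in the latter with the replicate block), a direction that turns with TMM, and TRBC1 was not listed in these libraries. The summed reads of the T cell receptor constant gene class, counted without site calling, were 0.153 and 0.150% against 0.148 and 0.153% (0.01, SE 0.024, adjusted p = 0.84). LCK, the kinase that phosphorylates the receptor, had 89.7 and 94.5 RPM against 49.2 and 44.1 (0.98, SE 0.15, adjusted p = 0.0493, edgeR).

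The groups of antigen presentation, ribosomal proteins and oxidative phosphorylation held a few called genes, in the fit over all genes all toward EIF3A/C/B. For ribosomal proteins and oxidative phosphorylation those counts were near the share over all genes tested (7.46%). Of 14 genes of MHC class I presentation, 3 were higher in EIF3A/C/B and 0 lower, and of 6 listed in all 4 libraries 3 and 1 were called. TAP1, a peptide transporter of the endoplasmic reticulum, had 406 and 377 RPM against 144 and 119 (1.57, SE 0.13, adjusted p = 0.0335, edgeR), while B2M, beta-2 microglobulin, had 326 and 320 against 424 and 386 (-0.33, adjusted p = 0.071). Of 42 ribosomal protein genes 4 and 0 were called (median 1.02), but of 27 listed in all 4 libraries 7 and 3 were called with a median of 0.29, and 12 of the group were listed in both EIF3A/C/B libraries alone. Of 30 genes of oxidative phosphorylation, 3 were higher in EIF3A/C/B and 0 lower (median 0.90), and of 23 listed in all 4 libraries 8 and 0 (median 0.53). ATF4, the transcription factor of the amino acid response, had 241 and 263 RPM against 106 and 109 (1.23, SE 0.099, adjusted p = 0.0335, edgeR). PKM and GAPDH, both glycolytic enzymes, went opposite ways: PKM had 460 and 405 against 735 and 762 (-0.79, SE 0.085, adjusted p = 0.0394) and GAPDH 125 and 127 against 55.7 and 67.3 (1.04, SE 0.15, adjusted p = 0.0447, edgeR).

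Other groups were mixed or lay toward EIF3B/C. Of 15 actin and tubulin genes with related cytoskeletal genes, 0 were higher in EIF3A/C/B and 2 lower (median -0.14). ACTG1, gamma actin, had 260 and 272 RPM against 413 and 390 (-0.59, SE 0.074, adjusted p = 0.0435, edgeR), whereas ACTB, beta actin, had 464 and 436 against 519 and 493 (-0.17, adjusted p = 0.18). Of 27 hnRNP and SR proteins, which bind pre-mRNA, 5 and 2 were called (median 0.19), with SRSF3 at 340 and 339 against 482 and 479 RPM (-0.50, SE 0.057, adjusted p = 0.0407, edgeR). Of 22 proteasome genes 3 were higher in EIF3A/C/B and 1 lower (median 1.86), and of 9 listed in all 4 libraries 2 and 1 (median 0.14): PSMA6 of the core ring had 249 and 235 against 102 and 109 (1.20, adjusted p = 0.0335) and PSMB2, also of the core, had 77.5 and 79.9 against 208 and 191 (-1.34, adjusted p = 0.0335, edgeR). TRIM28, a corepressor of zinc finger proteins, had 1324 and 1230 against 872 and 848 (0.57, SE 0.053, adjusted p = 0.0362, edgeR). Of 7 tested genes of eIF3 itself, 0 were called by edgeR (2 at an unadjusted p under 0.05), and of 5 listed in all 4 libraries 1 was higher in EIF3A/C/B. EIF3A had 13 and 22 reads against 26 and 12, and EIF3B 38 and 26 against 8 and 12.

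**Figure D5:**
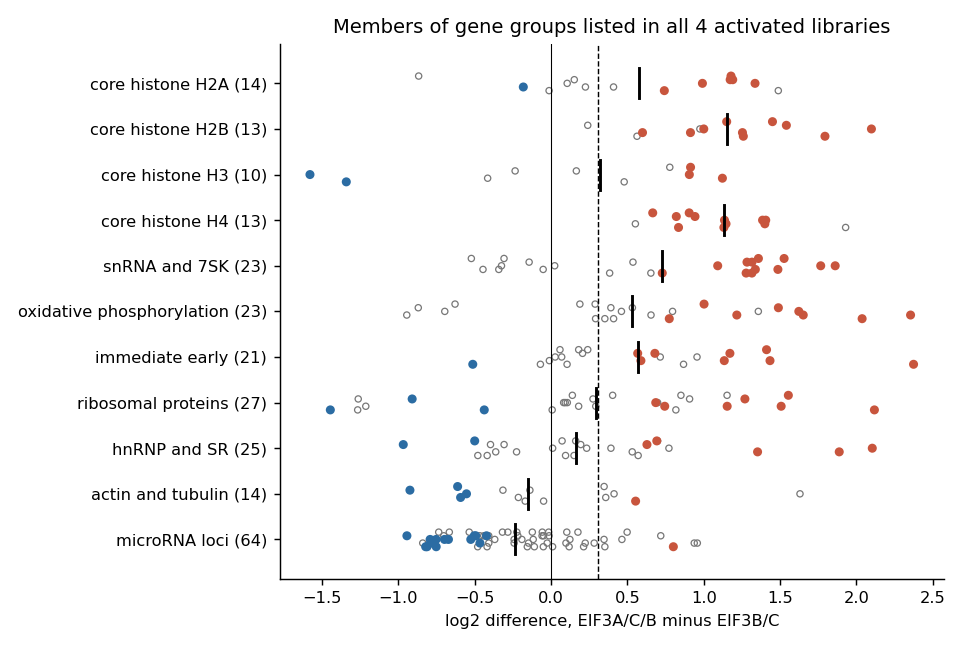
Log2 difference between the bands (x axis, EIF3A/C/B minus EIF3B/C) for the members of 11 gene groups that were listed in all 4 activated libraries and tested, with the number of members in parentheses. Filled points were called by edgeR, thick bars are group medians and the dashed line is the median of all 2381 tested genes listed in all 4 libraries (0.31). H2B and H4 histones lie to the right of that line with medians of 1.15 and 1.13, and microRNA loci lie to the left with a median of -0.23.

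MicroRNA reads lay toward EIF3B/C. MicroRNAs pair with target mRNAs through their seed, bases 2 to 8 from the 5' end, within Argonaute complexes. As a class they made up 1.64 and 1.60% of uniquely aligned reads in EIF3A/C/B and 1.92% in both EIF3B/C libraries, a log2 difference of -0.24 (SE 0.017, adjusted p = 0.000602, edgeR). Of 111 tested loci 3 were higher in EIF3A/C/B and 12 lower (median -0.15), and of 64 listed in all 4 libraries 1 and 14 were called (median -0.23). The count includes a long host transcript, MIR4435-1HG, as 1 of the 3, named after its values were seen. MIR142, a microRNA of blood cells, had the most reads of them, with 1840 and 1760 RPM in EIF3A/C/B and 2404 and 2421 in EIF3B/C (-0.42, SE 0.032, adjusted p = 0.0332, edgeR).

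The mature sequences are shown for the families on which this rests, because members of a family share their seed. They are RefSeq sequences on hg38, 108 of the 111 loci had one, the seed is in capitals, and the sheets do not say which arm was read, so the arm usually kept is shown. The miR-17 family shares the seed AAAGUGC.
MIR17: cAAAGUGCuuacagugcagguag
MIR20A: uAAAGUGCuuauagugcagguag
MIR93: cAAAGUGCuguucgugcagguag
MIR106A: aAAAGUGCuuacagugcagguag
Summed over its listed loci it had 894 and 969 RPM in EIF3A/C/B and 1877 and 1846 in EIF3B/C. MIR20A had 402 and 435 against 572 and 604 (-0.49, SE 0.072, adjusted p = 0.0462, edgeR), and MIR93 345 and 337 against 471 and 495 (-0.50, SE 0.064, adjusted p = 0.0443). MIR17 was listed in EIF3B/C alone, with 602 and 499 reads, and MIR106A, whose mature sequence is nearly the same, in a single EIF3A/C/B library with 88 reads. The family difference therefore rests mostly on MIR17, and what became of its reads in EIF3A/C/B was not tested. In non-activated cells MIR17 was listed in replicate 1 of EIF3A/C/B and of EIF3B/C, at 166 and 235 RPM, and in replicate 2 of neither band.

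The miR-181 family, which acts in T cell development, shares the seed ACAUUCA and the miR-29 family the seed AGCACCA.
MIR181A2: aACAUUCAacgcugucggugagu
MIR181B1: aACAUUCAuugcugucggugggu
MIR29A: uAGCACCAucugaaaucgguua
MIR29C: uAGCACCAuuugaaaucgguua
The miR-181 loci summed to 1226 and 1377 RPM in EIF3A/C/B and 1928 and 2210 in EIF3B/C, with no overlap. MIR181B1 had 204 and 221 against 371 and 362 (-0.79, SE 0.082, adjusted p = 0.0394, edgeR). The miR-29 loci summed to 249 and 200 against 470 and 421, where MIR29A had 134 and 129 against 177 and 172 (-0.41, adjusted p = 0.069) and MIR29C was listed in EIF3B/C alone, with 120 and 121 reads. The difference was not general. The miR-148 and miR-152 family, with 133 and 144 RPM against 33.9 and 45.2, lay toward EIF3A/C/B, but this rests on MIR148A alone. MIR148A had 153 and 107 reads against 0 and 0, and MIR148B had 0 and 61 against 31 and 41. The let-7 family, with seed GAGGUAG, had 1904 and 1750 RPM against 1920 and 2080, the miR-19 family 895 and 893 against 782 and 949, and MIR92A1 869 and 852 against 873 and 879 (-0.03, adjusted p = 0.70). Copies of a microRNA were listed unevenly between libraries of the same band, such as MIRLET7F1 with 447 and 0 reads in EIF3A/C/B against MIRLET7F2 with 0 and 448, which give the same mature sequence. Single loci are thus uncertain, and family sums less so except where a single locus carries the difference, as with MIR17 and MIR148A. Those 2 let-7 loci and MIR148B are named after their values were seen.

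Genes with a site in both libraries of a band and in neither of the other numbered 1021 for EIF3A/C/B and 116 for EIF3B/C. Most had few reads: the median was 13 reads in the former and 11.5 in the latter, and 20 and 4 of them averaged at least 50. Of 4288 genes listed in both EIF3A/C/B replicates 59.8% were also in both EIF3B/C replicates, and of 2850 genes listed in both EIF3B/C replicates 90.0% were in both EIF3A/C/B replicates. So the EIF3B/C list lay largely within the EIF3A/C/B list, which came from deeper libraries. The EIF3A/C/B replicates themselves shared 4288 of 5518 genes and the EIF3B/C replicates 2850 of 4120. The most read genes of a single band were MIR148A (153 and 107 reads), ZNF207 (25 and 198) and XXbac-BPG308K3.5 (25 and 171) for EIF3A/C/B, and MIR17, MIR29C and RNA5S9, a 5S ribosomal RNA gene (122 and 119), for EIF3B/C. The last also belongs to a family of copies, and the replicates of ZNF207 and XXbac-BPG308K3.5 differed so much that neither passed the test (adjusted p = 0.118 and 0.110, edgeR).

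The same bands of non-activated cells showed the same start codon and 3'-UTR difference. Start codon reads were 1.49 and 1.51% in EIF3A/C/B against 0.760 and 0.790% in EIF3B/C (log2 difference 0.95, SE 0.036, adjusted p = 2.63e-05, edgeR), and 3'-UTR reads 4.01 and 4.04% against 6.03 and 6.01% (-0.58, SE 0.016, adjusted p = 1.05e-05). These libraries are independent of the activated ones, although shallower, with 84320 and 83846 uniquely aligned reads in EIF3A/C/B and 191633 and 298205 in EIF3B/C. The test of the difference between states gave 0.16 for start codons (SE 0.033, adjusted p = 0.0071) and 0.08 for 3'-UTRs (SE 0.012, adjusted p = 0.0027), and the latter lost its call when reads without annotation were left out of the library sizes (0.03, adjusted p = 0.18). In contrast, 5'-UTR reads were 13.9% in both non-activated EIF3A/C/B libraries and 16.6 and 16.8% in EIF3B/C (-0.27, SE 0.012, adjusted p = 3.43e-05), opposite to activated cells, and the states differed by 0.44 (SE 0.010, adjusted p = 1.63e-07, edgeR). MicroRNA reads also turned: 0.937 and 0.927% against 0.753 and 0.791% in non-activated cells, higher in EIF3A/C/B by 0.27 (SE 0.043, adjusted p = 0.0040). The states differed by -0.51 for microRNA reads (SE 0.041, adjusted p = 9.80e-05, edgeR). TMM changed these sizes but not their directions, to 0.72 for 5'-UTRs, 0.44 for start codons, 0.36 for 3'-UTRs and -0.23 for microRNAs. Over 38 classes, 9 moved toward EIF3A/C/B in activated cells and 9 toward EIF3B/C (23.7% each). The non-activated EIF3A/C/B replicates differed by less than sampling noise over classes (chi-squared per degree of freedom 0.337). The value was 3.84 for the non-activated EIF3B/C pair and 10.8 and 2.90 for the activated EIF3A/C/B and EIF3B/C pairs. Whether that pair is independent was not tested, and the tests within non-activated cells count it as 2 libraries. With the pair summed as 1 library the states differed by 0.44 for 5'-UTRs, 0.16 for start codons, 0.08 for 3'-UTRs and -0.51 for microRNAs.

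Gene by gene the states could be compared for the 97 genes listed in all 8 libraries, and 32 of them moved toward EIF3A/C/B in activated cells (33%) and 4 toward EIF3B/C (4.12%). SOX4, even in activated cells, had 107 and 95.4 RPM in non-activated EIF3A/C/B against 757 and 875 in EIF3B/C (difference between states 3.08, SE 0.24, adjusted p = 0.000516, edgeR). LEF1 was higher in EIF3A/C/B in activated cells and stood at 391 and 298 against 704 and 812 in non-activated cells (1.62, SE 0.20, adjusted p = 0.0012). UBE2S was higher in EIF3A/C/B in both states, with 830 and 859 against 506 and 540 in non-activated cells (0.89, SE 0.15, adjusted p = 0.0043). At the depth of the non-activated EIF3A/C/B libraries SOX4 had 9 and 8 reads there, near the minimum of 7 per site, and sites under it drop out of a gene's sum. The part of this in the differences between states was not tested.

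Genes called toward EIF3A/C/B came from somewhat more abundant and shorter mRNAs than those called toward EIF3B/C, with no test made. In activated cells the median was 1.79 TPM for genes called toward EIF3A/C/B, 0.987 for those toward EIF3B/C and 1.07 for the rest. Their most abundant coding transcripts had median lengths of 1857, 2701 and 2303 nt. Across genes listed in all 4 libraries, the log2 difference between bands had a Spearman rho of 0.03 with TPM (2301 genes) and of -0.08 with transcript length (2183 genes), given as a description. The median share of T-to-C reads per gene was 0.87 in both EIF3A/C/B libraries and 0.89 and 0.90 in EIF3B/C. By region it was 0.80 in both EIF3A/C/B libraries and 0.83 in both EIF3B/C libraries for start codons, 0.79 against 0.84 for 5'-UTRs and 0.82 against 0.83 for 3'-UTRs. Conversion was therefore slightly higher in EIF3B/C in each of these regions, including those with more reads in EIF3A/C/B.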

How the data were processed

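The deposited PAR-CLIP counts are whole reads and sites per gene name in called clusters, which the authors made by collapsing reads with the same random barcode, aligning with Bowtie 1.0.0 to hg38, calling clusters with PARalyzer (at least 5 reads per group, 7 reads and 2 conversion positions per cluster, length 11) and annotating with GENCODE 21. Uniquely aligned reads per RNA class are also deposited counts. The T-to-C fraction values, also deposited, come from that pipeline. The TPM values were deposited by the authors as means of 2 replicates from kallisto 0.46.0, with no read numbers. The start and stop codon columns, listed as other, are whole numbers of sites, as deposited. Rows whose gene name had become a date (4 to 12 per library) are not named.

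Reads per gene and per RNA class were tested by quasi-likelihood in edgeR 4.0.16 under R 4.3.3 (Benjamini-Hochberg adjustment, threshold 0.05, uniquely aligned reads as library sizes), for genes with at least 20 reads and classes with at least 50 reads in any library. An unlisted gene entered as 0, and its fitted fold change is not printed. Alternatives were TMM, other library sizes, DESeq2 1.42.0, other filters, distinct reads, a block for the replicate number, and leaving out each library. The fit over genes listed in all 4 libraries was planned, and its combinations with the block, cluster-read sizes or an omitted library, TMM for non-activated classes and the summed non-activated pair were chosen after seeing the data. Scripts were tested on simulated data. Summaries used Python 3.11.15 with pandas 2.3.3 and scipy 1.17.1. The study calls the replicates biological. Both bands of a replicate were deposited as 1 sample, so the number pairs the bands by source, although same-numbered libraries did not deviate together over 1465 genes (r = 0.05). Replicate 2 sample labels follow the depositors' correction.

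The comparison, the 31 gene lists and the named genes were chosen with earlier results of these data known. Named were, in each direction, the 10 genes with the largest change among those called, listed in all 4 libraries, not overlapping and averaging at least 50 reads in the higher band. Also named were the 8 genes with most reads per band, the 3 most read genes of a single band, up to 4 most read tested members per list, called microRNA loci (up to 8) and genes the study discusses. The lists also covered calcineurin-NFAT and NF-kappaB, other initiation factors, elongation factors, amino acid response, chaperones, glycolysis, G1/S genes, chromatin factors, linker histones, zinc finger genes, ubiquitin-conjugating enzymes and small or structural RNAs. Transcript windows came from GENCODE and microRNA sequences from RefSeq, both on hg38.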

Additional observations from a re-analysis of the deposited data

Results flagged for a closer look

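Differences between the bands that themselves differed between activated and non-activated cells, by edgeR's test of the band by state term, are given here as the log2 difference in activated cells minus that in non-activated cells. The non-activated EIF3A/C/B libraries had 83846 and 84320 uniquely aligned reads and the EIF3B/C libraries 191633 and 298205, and the part of this depth in the values was not tested. Among RNA classes, 5 moved toward EIF3A/C/B in activated cells: exonic lincRNA (0.88), snoRNA (0.86), 5'-UTR (0.44), start codon (0.16) and 3'-UTR (0.078). Another 6 moved toward EIF3B/C: T cell receptor constant genes (-0.82), microRNA (-0.51), intron (-0.31), stop codon (-0.25), processed pseudogenes (-0.23) and coding reads (-0.10).

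Among named genes listed in all 8 libraries, 14 moved toward EIF3A/C/B in activated cells. They were SOX4 (3.08), HSP90AB1 (2.02), HIST1H3F (2.00), HIST2H3A (1.82), MIDN (1.69), LEF1 (1.62), CSK (1.61), RPL38 (1.25), TUBB (1.06), TRIM28 (0.91), UBE2S (0.89), H1FX (0.86), HIST1H2AC (0.58) and HNRNPAB (0.45). With the non-activated EIF3A/C/B pair summed as 1 library, 30 and 4 of the 97 genes were called and HNRNPAB was not (adjusted p = 0.084). MIRLET7B moved toward EIF3B/C (-0.98), with 219 and 211 RPM in EIF3A/C/B against 296 and 298 in activated cells and 202 and 131 against 125 and 111 in non-activated cells. HIST1H3F was lower in EIF3A/C/B in both states, with 130 and 95.4 RPM against 1367 and 1341 in non-activated cells.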

How the results depend on the processing

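The higher start codon and lower 3'-UTR reads of EIF3A/C/B kept their direction and call under each alternative run for the classes, with log2 differences of 1.03 to 1.13 and of -0.58 to -0.49. Gene counts moved (higher in EIF3A/C/B, then in EIF3B/C): 108 and 172 with TMM, 114 and 160 with reads in clusters as library sizes, 505 and 309 with DESeq2, 515 and 200 over genes listed in all 4 libraries, 3 and 2 with distinct reads, and 0 and 0 with no filter (2064 at an unadjusted p under 0.05). With the replicate block the counts were 0 and 0, and 376 and 144 over genes listed in all 4 libraries, where reads in clusters as library sizes gave 303 and 320. Leaving out each library gave 0 to 822 and 0 to 130, and over genes listed in all 4 libraries 217 to 471 (465 without EIF3B/C replicate 2) and 88 to 161. Called classes higher in EIF3A/C/B numbered 7 with TMM. Between states, TMM gave 17 and 2 classes. Leaving out each library gave 7 to 12 and 5 to 9 classes, and 21 to 33 and 2 to 5 genes. The replicate block ended the exonic lincRNA call among the named classes.

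Values that turned and were called before or after were SOX4 (-0.25 with DESeq2, -0.22 with cluster reads as sizes over genes listed in all 4 libraries), SLC7A5 (-0.28 and -0.25), EGR1 (0.30) and HIST1H3B (0.072) with distinct reads, and with TMM coding reads (-0.020) and, between states, coding (0.19), stop codon (0.036) and processed pseudogene reads (0.046). The sign of 27 of 142 named genes turned with TMM and with DESeq2, and of 24 with reads in clusters as library sizes, among them TRBC2 (-0.084), LAT (-0.096) and HNRNPAB (-0.085), not called. The cause was not tested. Over genes listed in all 4 libraries, site shares were 36.2% for 5'-UTR and 1.25% for stop codon in EIF3A/C/B replicate 1, 7.54 and 7.31% for start codon in EIF3A/C/B, 20.8 and 20.5% for exon in EIF3B/C, and for 3'-UTR 15.0 and 15.4% in EIF3A/C/B and 20.8 and 20.5% in EIF3B/C. With at least 20 reads, 57.2 and 91.8% of the EIF3A/C/B and EIF3B/C lists were shared. Depth limits genes near 7 reads per site.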
